A study of Bos taurus with 7 samples.

Results

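The 34 genes described here encode the machinery that drives a cell through mitosis and parts its chromosomes. They were chosen by name and by known role: cyclins with their kinase, the mitotic kinases and the chromosomal passenger complex, the spindle checkpoint, the centromere and kinetochore, spindle motors and assembly factors, the genes that start anaphase, and condensin with a topoisomerase. The choice was made with earlier results of these data known. All 34 had at least 1 matched transcript, out of 23704 genes in all. The data are RNA sequencing of whole bovine ovarian follicles at early stages of growth, each follicle being an oocyte with its granulosa cells. In secondary follicles (SF, 3 libraries) several layers of granulosa cells surround the oocyte, and in primary follicles (PF, 4 libraries) a complete single layer of cuboidal granulosa cells does. The SF and PF came from ovaries of young Holstein Friesian dairy cows collected at an abattoir, were freed mechanically and sorted by mesh and by eye, and rested in a medium with insulin and follicle-stimulating hormone before lysis. Neither group was treated otherwise, and no source used here gives the animals' genotypes. Each library is a pool of follicles whose animals of origin are not given in the sources used here. The p-values therefore cover the spread between pools, part of which may be technical.

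A dividing cell condenses its chromosomes with condensin and topoisomerase II, and cyclins A and B bound to the kinase CDK1 carry it into mitosis. Kinetochores, built on the centromere, hold the chromosomes to spindle microtubules, and the spindle checkpoint stops the anaphase-promoting complex until every kinetochore is attached. In a growing follicle the granulosa cells divide by mitosis, whereas the oocyte rests in meiotic prophase and is known to store transcripts of the same machinery for its later meiotic divisions.

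The libraries held 18788105 to 23764615 estimated counts, and PF replicate 4 stood apart from the rest. Its Spearman correlation with PF replicates 1 to 3 was 0.737 to 0.795, and it was 0.828 to 0.862 with the SF libraries, whereas PF replicates 1 to 3 correlated at 0.860 to 0.917 with each other. In this library 11 stromal fibroblast markers, such as *COL1A2* and *LUM*, summed to 7294 TPM, against 217 to 618 TPM in the other 6 libraries. Not all of them were high there, since *DCN* was at 167.8 TPM, against 144.5 to 573 TPM elsewhere, and *OGN* was at 0. Markers of smooth muscle and pericytes summed to 994 TPM in PF replicate 4, against 66.4 to 242 TPM elsewhere. Theca markers summed to 876 TPM, against 101 to 253 TPM. TPM give the abundance of a transcript corrected for its length within a fixed total. The 26 granulosa markers with a value summed to 8543, 8778 and 9854 TPM in SF replicates 1 to 3, against 3842, 2669 and 3001 TPM in PF replicates 1 to 3 and 3745 TPM in PF replicate 4. The 27 oocyte markers summed to 2600, 2075 and 379.6 TPM in SF, against 7874, 7531 and 4110 TPM in PF replicates 1 to 3 and 708 TPM in PF replicate 4. Of the oocyte markers, 20 of 27 were lower in SF by the test used below, and of 23 granulosa markers tested 14 were higher and 1 was lower. The defining oocyte markers *GDF9* and *ZP3* and the granulosa markers *FOXL2* and *AMHR2* were above 0 in every library. The immune markers summed to 272 TPM in SF replicate 1, nearly all of it *CD74*, and to 2.81 to 19.3 TPM in the other libraries.

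The comparison asked how the transcripts of the mitosis genes differed between the stages. As a group, the 34 genes held less of the RNA in SF than in PF. Their summed level was 1469, 1695 and 621 TPM in SF replicates 1 to 3, against 5604, 4587 and 2985 TPM in PF replicates 1 to 3 and 1393 TPM in PF replicate 4. The mean in SF was 0.287 of that in PF replicates 1 to 3, and the libraries of these groups did not overlap, but PF replicate 4 lay among the SF libraries. In whole follicles, fewer cells of a type and less RNA per cell cannot be told apart.

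Gene by gene, 19 of the 34 were lower in SF and 1 was higher by the Wald test of DESeq2 on PF and SF replicates 1 to 3, at a Benjamini-Hochberg adjusted p below 0.05 over all genes. The share lower was 55.9%, against 11.0% of the 15056 genes tested, and the share higher was 2.94%, against 8.14% of all genes. From the same data, the study names cyclins, checkpoint genes, *ANAPC7*, *BUB3* and *BUB1B* as upregulated in PF. Since the list was chosen with such results known, these shares are no independent test of it. The fold change, SF over PF, was below 0 on the log2 scale for 30 of the 34, with a median of -1.42, against 0.02 over all genes tested. For 24 members all SF libraries lay below PF replicates 1 to 3 in normalized counts (70.6%, against 18.9% of all genes), and for 1 all lay above (16.9% of all genes).

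These calls depended on the test and on the libraries. With PF replicate 4 kept, DESeq2 called 8 members lower (23.5%, against 3.19% of all genes) and 0 higher, at an unadjusted p below 0.05 for 22 (64.7%, against 10.4%) and 0 (against 6.02%), and 13 members had every SF library below all 4 PF libraries (38.2%, against 6.34%). The quasi-likelihood test of edgeR called 0 members and 0 genes in all at an adjusted p below 0.05. At an unadjusted p below 0.05 it found 22 members lower (64.7%, against 13.5% of genes) and 1 higher (against 13.4%). limma on log2(TPM + 1) called 5 members lower, *AURKA*, *CDCA8*, *MAD2L1*, *NDC80* and *SPC25* (14.7%, against 4.25%). In counts simulated with the spread of these libraries and few changed genes, about as many unchanged as changed genes passed the DESeq2 test, more than its threshold allows, and edgeR called nearly none of the changed ones. The simulation had far fewer changed genes than the 1650 lower and 1226 higher calls in the data. It was a single run, with changes of a single size. The share of unchanged genes among the calls in the data, and the share of changed genes that edgeR missed there, therefore cannot be read from it.

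The direction also depended on what the libraries were scaled to. When DESeq2 was scaled to the oocyte markers in place of all genes, the median of all genes tested moved to 2.63 on the log2 scale and the median of the 34 members to 0.85. On that scale 24 of the 30 members below 0 turned positive, 14 of the 19 lower calls among them. Over all 19009 genes the number below 0 went from 9089 to 2088, so this turn was not particular to the members. DESeq2 called 0 members lower, at an adjusted or an unadjusted p below 0.05 (0.245% of all genes at an adjusted p). A total of 6 members were called higher, *CDK1*, *PLK1*, *KIF11*, *KIF23*, *UBE2C* and *TOP2A* (17.6%, against 54.4% of all genes). Every statement below that a gene was lower or higher is on the scale of all genes.

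**Figure D1:**
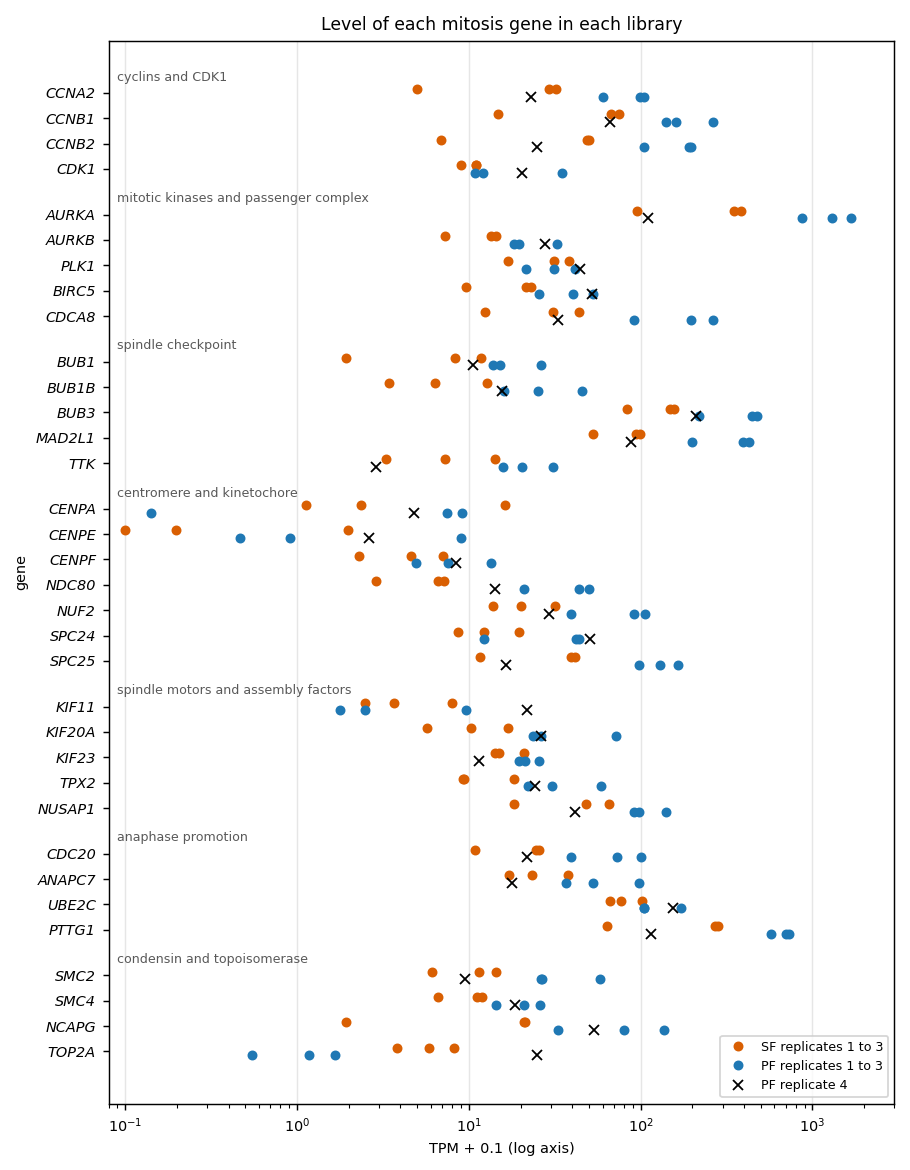
Level of each of the 34 genes in each library, as TPM + 0.1 on a log axis, with SF replicates 1 to 3 in orange above PF replicates 1 to 3 in blue and PF replicate 4 as a cross, by role. Most orange points lie left of the blue ones, as for *AURKA* (95.3 to 385 TPM in SF and 869.5 to 1677 TPM in PF), *TOP2A* lies the other way, and the cross is often among the SF points. Relative to the oocyte markers 24 of the 30 members with a fold change below 0 turned positive, as did most of all genes below 0.

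The cyclins of mitosis were lower in SF. *CCNB1*, cyclin B1, was at 67.3, 75.0 and 14.6 TPM in SF replicates 1 to 3, against 264, 161 and 139.7 TPM in PF replicates 1 to 3 and 65.8 TPM in PF replicate 4. *CCNB2*, cyclin B2, was at 49.7, 48.4 and 6.83 TPM in SF, against 192, 197 and 105 TPM in PF and 24.9 TPM in PF replicate 4. *CCNA2*, cyclin A2, which acts from DNA replication on, was at 29.2, 32.0 and 4.90 TPM in SF, against 104, 99.4 and 60.3 TPM in PF and 22.8 TPM in PF replicate 4. For each cyclin SF replicate 3 was far below the other SF libraries, and no SF library reached PF replicates 1 to 3. The log2 fold changes were -1.76 ± 0.58 (SE) for *CCNB1* (DESeq2 adjusted p = 0.017), -2.15 ± 0.66 for *CCNB2* (0.010) and -1.91 ± 0.63 for *CCNA2* (0.018). *CDK1*, the kinase that these cyclins activate, did not pass the test. It was at 8.95, 10.9 and 10.9 TPM in SF, against 11.9, 35.0 and 10.8 TPM in PF and 20.2 TPM in PF replicate 4, with a log2 fold change of -0.54 ± 0.57 (adjusted p = 0.55) that rested on PF replicate 2, without which it was 0.12. Over the 7 libraries 64.7% of the *CDK1* level came from 1 of 5 matched transcript models, a predicted one. The curated model held 1.10, 0 and 0 TPM in SF, against 2.25, 3.48 and 3.85 TPM in PF and 0 in PF replicate 4. The spread of *CDK1* differed from that of its partners. The ratio of *CCNB1* to *CDK1* was 7.51, 6.87 and 1.34 in SF, against 22.1, 4.61 and 12.9 in PF and 3.26 in PF replicate 4, and these ranges overlapped. The calls of the cyclins ended without PF replicate 1 (0.086 for *CCNA2*, 0.12 for *CCNB1* and 0.059 for *CCNB2*) or PF replicate 2 (0.091, 0.052 and 0.071), among adjusted p of 2.2e-05 to 0.091, 6.4e-04 to 0.12 and 9.4e-06 to 0.071 with 1 library left out. With PF replicate 4 kept the adjusted p were 0.15, 0.12 and 0.16.

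Among the mitotic kinases, *AURKA* was by far the most abundant. Aurora kinase A, its product, ripens the centrosomes and builds spindle poles. Its level was 349, 385 and 95.3 TPM in SF replicates 1 to 3, against 1677, 1303 and 869.5 TPM in PF replicates 1 to 3 and 111 TPM in PF replicate 4. No SF library reached PF replicates 1 to 3, and PF replicate 4 was close to the lowest SF library. The log2 fold change was -2.12 ± 0.51 (DESeq2 adjusted p = 7.0e-04), and the call held without any single one of the 6 libraries (adjusted p 1.7e-08 to 0.014), but ended with PF replicate 4 kept (-1.77 and 0.17). Over the 7 libraries 99.6% of its level came from 1 of 2 transcript models, a predicted one. *AURKB*, the aurora kinase of the chromosomal passenger complex, was at 13.3, 14.2 and 7.14 TPM in SF, against 19.4, 32.4 and 18.3 TPM in PF and 27.6 TPM in PF replicate 4, and its log2 fold change of -0.92 ± 0.43 did not pass the test (adjusted p = 0.12). The SF libraries of *AURKB* all lay below the PF libraries, by a small distance. *CDCA8*, borealin, which brings that complex to the centromere, was at 30.9, 43.8 and 12.4 TPM in SF, against 264, 196 and 91.6 TPM in PF and 32.9 TPM in PF replicate 4. It fell by 2.55 ± 0.51 on the log2 scale (adjusted p = 4.4e-05), also without each of the 6 libraries (3.4e-06 to 0.0029) and with PF replicate 4 kept (0.026). *BIRC5*, survivin, a further subunit, was at 9.58 to 23.0 TPM in SF, against 25.6 to 52.6 TPM in PF and 52.0 TPM in PF replicate 4, and did not pass the test (log2 fold change -1.03 ± 0.45, adjusted p = 0.089). *PLK1*, polo-like kinase 1, which acts on entry into mitosis and at kinetochores, was at 16.9, 38.1 and 31.3 TPM in SF, against 41.4, 31.3 and 21.5 TPM in PF and 44.4 TPM in PF replicate 4. The groups of *PLK1* overlapped fully, with a log2 fold change of 0.01 ± 0.42 (adjusted p = 0.99).

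The spindle checkpoint was lower in 3 of its 5 members and below 0 on the log2 scale in all 5. *MAD2L1*, whose product MAD2 binds and holds CDC20, was at 99.2, 94.2 and 52.7 TPM in SF replicates 1 to 3, against 425, 396 and 199 TPM in PF replicates 1 to 3 and 87.3 TPM in PF replicate 4. *BUB3*, which brings the BUB kinases to kinetochores, was at 156, 149 and 83.0 TPM in SF, against 475, 445 and 220.0 TPM in PF and 211 TPM in PF replicate 4. *BUB1B*, BUBR1, a subunit of the mitotic checkpoint complex, was at 6.22, 12.7 and 3.35 TPM in SF, against 45.7, 25.1 and 15.9 TPM in PF and 15.5 TPM in PF replicate 4. For *BUB3* and *BUB1B* every SF library lay below all 4 PF libraries, and for *MAD2L1* below PF replicates 1 to 3 alone. The log2 fold changes were -1.92 ± 0.37 for *MAD2L1* (DESeq2 adjusted p = 1.4e-05), -1.27 ± 0.35 for *BUB3* (0.0037) and -1.85 ± 0.56 for *BUB1B* (0.0087). All 3 calls held with PF replicate 4 kept (0.041, 0.025 and 0.035), and the *BUB1B* call ended without PF replicate 1 (0.093, in a range of 7.3e-04 to 0.093). *BUB1*, the kinase that marks centromeres, was at 8.16, 11.7 and 1.82 TPM in SF, against 26.3, 15.1 and 13.7 TPM in PF and 10.4 TPM in PF replicate 4 (log2 fold change -1.26 ± 0.64, adjusted p = 0.16). *TTK*, the MPS1 kinase that starts checkpoint signalling, was at 7.17, 14.2 and 3.20 TPM in SF, against 30.9, 20.3 and 15.7 TPM in PF and 2.79 TPM in PF replicate 4 (log2 fold change -1.36 ± 0.55, adjusted p = 0.063). Both had SF libraries below PF replicates 1 to 3 and missed the threshold. The *TTK* test passed without SF replicate 2 (0.0049, in a range of 0.0049 to 0.24).

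At the kinetochore, the NDC80 complex, which grips the microtubule, was lower in 3 of its 4 subunits. *NDC80* itself had the smallest adjusted p of the 34 genes. Its level was 7.02, 6.51 and 2.79 TPM in SF replicates 1 to 3, against 49.7, 43.4 and 20.9 TPM in PF replicates 1 to 3 and 14.0 TPM in PF replicate 4. *NUF2*, its direct partner, was at 31.8, 20.0 and 13.7 TPM in SF, against 106, 91.2 and 39.2 TPM in PF and 29.2 TPM in PF replicate 4. *SPC25*, which anchors the complex to the inner kinetochore with SPC24, was at 39.0, 41.3 and 11.4 TPM in SF, against 130.4, 164 and 98.1 TPM in PF and 16.3 TPM in PF replicate 4. In *NDC80* all 4 PF libraries lay above every SF library, and in *SPC25* PF replicate 4 lay among them. On the log2 scale the changes were -2.68 ± 0.48 for *NDC80* (DESeq2 adjusted p = 2.2e-06), -1.70 ± 0.47 for *NUF2* (0.0036) and -1.48 ± 0.28 for *SPC25* (1.4e-05), and all 3 passed without each of the 6 libraries in turn. The transcript length offset gave a larger change of -2.01 for *SPC25*. With PF replicate 4 kept *NDC80* passed (4.1e-04) and *NUF2* (0.059) and *SPC25* (0.20) did not. *SPC24* was at 12.2, 19.4 and 8.49 TPM in SF, against 43.5, 42.0 and 12.2 TPM in PF and 50.7 TPM in PF replicate 4, so that PF replicate 3 lay within the SF range. Its log2 fold change of -1.13 ± 0.62 did not pass the test (adjusted p = 0.19), and it passed without PF replicate 3 (0.028, in a range of 0.028 to 0.44).

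The centromere genes were low and unsteady between libraries. *CENPA*, the histone that marks the centromere, was at 2.25, 16.1 and 1.03 TPM in SF replicates 1 to 3 (63, 462 and 36 counts), against 8.98, 0.0414 and 7.36 TPM in PF replicates 1 to 3 (216, 1 and 179 counts) and 4.67 TPM in PF replicate 4. Its log2 fold change of 0.51 ± 1.44 did not pass the test (DESeq2 adjusted p = 0.85) and was -1.40 without SF replicate 2. *CENPE*, a kinesin of the kinetochore, had 0, 256 and 14 counts in SF, against 1242, 54 and 114 counts in PF and 320 counts in PF replicate 4 (log2 fold change -2.22 ± 1.68, adjusted p = 0.38). The value of 0 counts in SF replicate 1 allows up to 3 counts. *CENPF*, a large protein of the outer kinetochore, was at 4.48, 6.96 and 2.21 TPM in SF, against 13.3, 4.83 and 7.48 TPM in PF and 8.29 TPM in PF replicate 4 (log2 fold change -0.81 ± 0.53, adjusted p = 0.29). In all 3 genes the SF and PF libraries overlapped. *CENPE* passed without SF replicate 2 (0.012, in a range of 0.012 to 1.00) and in the fit with the library number added (0.033).

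Of the spindle genes, 3 of 5 were lower. *KIF20A*, a kinesin needed for the cleavage of the cell, was at 10.1, 16.8 and 5.59 TPM in SF replicates 1 to 3, against 71.4, 23.6 and 26.2 TPM in PF replicates 1 to 3 and 26.1 TPM in PF replicate 4. *TPX2*, which activates Aurora kinase A on the spindle, was at 9.10, 18.2 and 9.30 TPM in SF, against 58.7, 30.5 and 21.9 TPM in PF and 24.1 TPM in PF replicate 4. *NUSAP1*, a protein that bundles spindle microtubules, was at 48.2, 65.0 and 18.2 TPM in SF, against 139.6, 91.6 and 97.4 TPM in PF and 41.6 TPM in PF replicate 4. In *KIF20A* PF replicate 1 stood far above the other PF libraries, which still lay above every SF library. The log2 fold changes were -1.78 ± 0.55 for *KIF20A* (DESeq2 adjusted p = 0.011), -1.49 ± 0.46 for *TPX2* (0.011) and -1.25 ± 0.47 for *NUSAP1* (0.042). With PF replicate 4 kept *KIF20A* (0.029) and *TPX2* (0.023) passed and *NUSAP1* (0.24) did not. With 1 of the 6 libraries left out the adjusted p ran over 0.0087 to 0.11, 0.0044 to 0.088 and 0.022 to 0.17. The call of *KIF20A* ended without PF replicate 1 (0.11), that of *TPX2* without PF replicate 1 (0.088) or SF replicate 1 (0.053), and that of *NUSAP1* without PF replicate 1 (0.17), 2 (0.078) or 3 (0.080) or SF replicate 1 (0.069).

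Both remaining motors gave another picture. *KIF11*, the kinesin that pushes spindle poles apart, was at 2.39, 7.86 and 3.56 TPM in SF replicates 1 to 3, against 9.50, 2.40 and 1.68 TPM in PF replicates 1 to 3 and 21.7 TPM in PF replicate 4. *KIF23*, a motor of the central spindle, was at 14.9, 21.0 and 14.2 TPM in SF, against 25.4, 21.1 and 19.5 TPM in PF and 11.3 TPM in PF replicate 4. The groups overlapped in both, and PF replicate 4 had the highest *KIF11* and the lowest *KIF23* level of the 7 libraries. The log2 fold changes were 0.19 ± 0.77 for *KIF11* (DESeq2 adjusted p = 0.90) and -0.26 ± 0.26 for *KIF23* (0.53), and *KIF11* was -0.96 with PF replicate 4 kept.

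The genes that start anaphase were lower in 3 of 4. *CDC20*, the activator of the anaphase-promoting complex and the target of MAD2, was at 24.4, 25.5 and 10.7 TPM in SF replicates 1 to 3, against 100.2, 72.7 and 39.0 TPM in PF replicates 1 to 3 and 21.7 TPM in PF replicate 4. *PTTG1*, securin, which holds back the enzyme that cuts cohesin, was at 269, 283 and 63.3 TPM in SF, against 730.1, 705 and 571 TPM in PF and 115 TPM in PF replicate 4. *ANAPC7*, a subunit of the complex, was at 23.2, 37.9 and 17.1 TPM in SF, against 97.6, 52.9 and 36.7 TPM in PF and 17.7 TPM in PF replicate 4. *PTTG1* was the second most abundant of the 34 genes by mean TPM in either group and was steady across PF replicates 1 to 3, with PF replicate 4 and SF replicate 3 far below. Changes on the log2 scale were -1.67 ± 0.45 for *CDC20* (DESeq2 adjusted p = 0.0032), -1.63 ± 0.52 for *PTTG1* (0.015) and -1.13 ± 0.44 for *ANAPC7* (0.049). None of the 3 passed with PF replicate 4 kept (0.096, 0.26 and 0.37). *CDC20* passed without each of the 6 libraries, *PTTG1* did not without PF replicate 1 (0.063) or 2 (0.071, in a range of 1.1e-08 to 0.071), and *ANAPC7* did not without PF replicate 1 (0.24) or 2 (0.095) and without SF replicate 1 (0.13) or 3 (0.16, in a range of 0.019 to 0.24). *UBE2C*, the enzyme that gives ubiquitin to the complex, was at 65.8, 102 and 77.0 TPM in SF, against 172, 105 and 104 TPM in PF and 155 TPM in PF replicate 4, and did not pass (log2 fold change -0.52 ± 0.33, adjusted p = 0.28). Its SF replicate 2 came close to PF replicates 2 and 3.

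Condensin and topoisomerase held the single gene that was higher. *SMC2*, a core subunit of condensin, was at 11.3, 14.2 and 6.01 TPM in SF replicates 1 to 3, against 58.0, 26.4 and 26.0 TPM in PF replicates 1 to 3 and 9.36 TPM in PF replicate 4. *NCAPG*, a subunit of condensin I, was at 20.8, 21.1 and 1.82 TPM in SF, against 137, 80.2 and 32.7 TPM in PF and 53.1 TPM in PF replicate 4. The SF libraries of *NCAPG* lay below all 4 PF libraries, with SF replicate 3 the lowest by far. Log2 fold changes of -1.69 ± 0.44 for *SMC2* (DESeq2 adjusted p = 0.0022) and -2.40 ± 0.80 for *NCAPG* (0.019) passed. *SMC2* passed without each of the 6 libraries and did not with PF replicate 4 kept (0.13). *NCAPG* passed with it (0.046) and did not without PF replicate 1 (0.15) or 2 (0.076, in a range of 0.0053 to 0.15). *SMC4*, the partner of SMC2, was at 6.47, 11.1 and 11.9 TPM in SF, against 26.0, 20.7 and 14.4 TPM in PF and 18.5 TPM in PF replicate 4. Its log2 fold change of -0.93 ± 0.38 did not pass (adjusted p = 0.070), and it passed without SF replicate 3 (0.015, in a range of 0.015 to 0.23).

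*TOP2A*, topoisomerase II alpha, which untangles DNA strands and is a common marker of dividing cells, was at 3.71, 8.09 and 5.79 TPM in SF replicates 1 to 3 (347, 656 and 482 counts), against 1.07, 0.450 and 1.56 TPM in PF replicates 1 to 3 (90, 37 and 131 counts). Every SF library lay above them, with a log2 fold change of 2.55 ± 0.65 (DESeq2 adjusted p = 0.0017), and the call held without each of the 6 libraries (2.1e-05 to 0.041). PF replicate 4 held 24.7 TPM (1849 counts), above every SF library. With it kept the log2 fold change was -0.32, and DESeq2 gave no adjusted p. PF replicate 4 was also the highest PF library for *KIF11*, *SPC24* and *PLK1*. It is the library in which the stromal fibroblast markers summed to 7294 TPM. The smooth muscle and theca markers were highest there too, and the part of such cells in these levels was not tested.

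**Figure D2:**
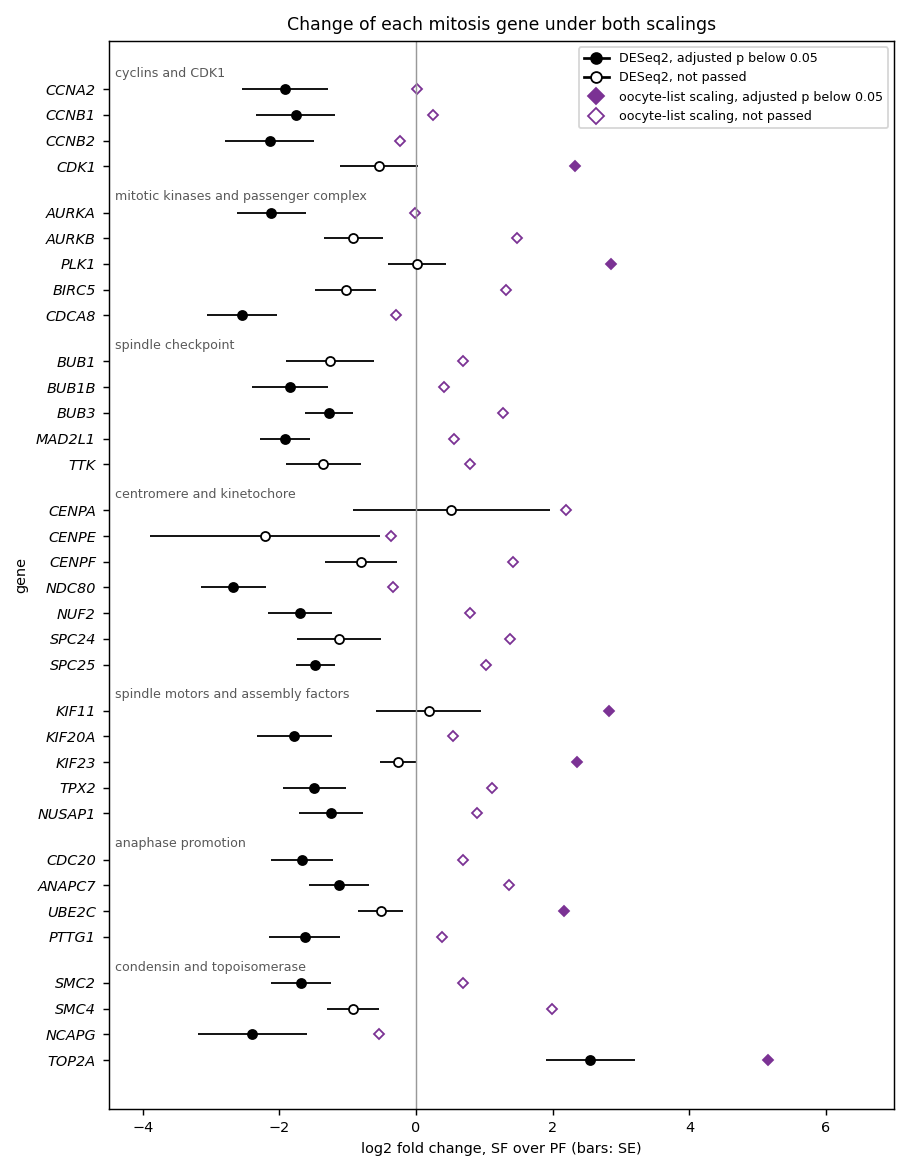
Log2 fold change, SF over PF, of each of the 34 genes, by role, with DESeq2 values and their SE as circles and the values scaled to the oocyte markers as diamonds. Filled symbols passed an adjusted p of 0.05. On the scale of all genes 30 of 34 lie left of 0, and under the oocyte scaling 24 of these 30 lie right of it, with 6 filled diamonds. Over all 19009 genes the number below 0 went from 9089 to 2088.

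A few genes held most of the level. *AURKA*, *PTTG1*, *BUB3* and *MAD2L1* made up 47.4% to 62.3% of the summed TPM of the 34 genes in SF and PF replicates 1 to 3, and 37.6% in PF replicate 4. *AURKA* alone took 23.7%, 22.7% and 15.3% in SF, against 29.9%, 28.4% and 29.1% in PF replicates 1 to 3 and 7.94% in PF replicate 4. *UBE2C* took 4.48%, 5.996% and 12.4% in SF, against 3.07%, 2.29% and 3.50% in PF and 11.1% in PF replicate 4. *PLK1* took 1.15%, 2.25% and 5.03% in SF, against 0.739%, 0.682% and 0.719% in PF and 3.19% in PF replicate 4. SF replicate 3 and PF replicate 4, the libraries with the lowest oocyte marker sums, had the lowest *AURKA* and the highest *UBE2C* and *PLK1* shares of the 7 libraries. *PTTG1* took 18.3%, 16.7% and 10.2% in SF, against 13.0%, 15.4% and 19.1% in PF and 8.24% in PF replicate 4. *BUB3* took 10.6%, 8.77% and 13.4% in SF, against 8.48%, 9.705% and 7.37% in PF and 15.15% in PF replicate 4. In the same pair of libraries the share of *PTTG1* was lowest and that of *BUB3* highest.

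The libraries also differed within a group in a shared way. Of the 34 genes, 26 were lowest in SF replicate 3 among the SF libraries (76.5%, against 52.7% of the 13397 genes at 1 TPM or more in at least 3 libraries). Among PF replicates 1 to 3, 28 were highest in replicate 1 (82.4%, against 44.8%) and 28 were lowest in replicate 3 (82.4%, against 52.7%). In PF replicate 4, 19 were lower than in every other PF library (55.9%, against 35.8%) and 4 were higher (11.8%, against 29.7%). The order of the libraries by summed level of the 34 genes was PF replicates 1, 2 and 3, SF replicates 2 and 1, PF replicate 4 and SF replicate 3. The oocyte marker sums gave the same order but for SF replicates 1 and 2, which changed places.

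**Figure D3:**
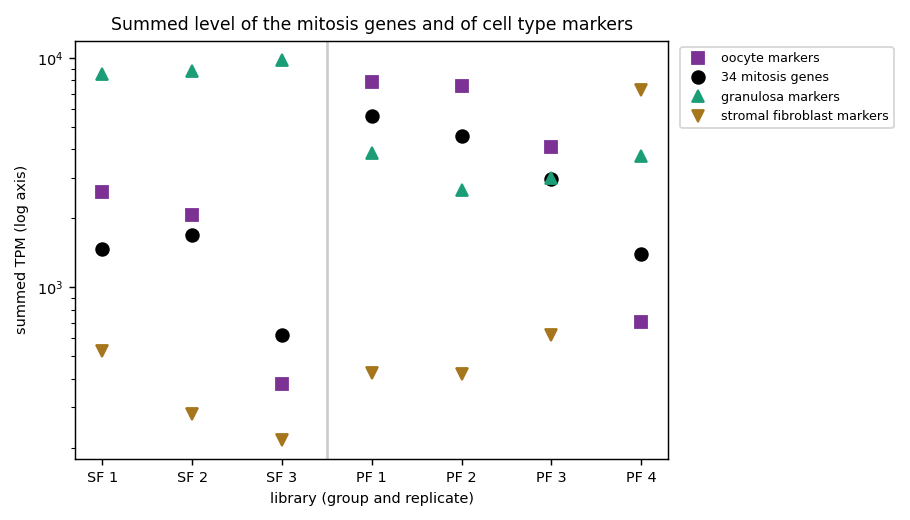
Summed TPM, on a log axis, of the 34 mitosis genes and of the oocyte, granulosa and stromal fibroblast markers in each library, SF left of PF. The mitosis genes follow the oocyte markers down from PF replicate 1 (5604 and 7874 TPM) to SF replicate 3 (621 and 379.6 TPM), and in the libraries with the fewest oocyte markers, SF replicate 3 and PF replicate 4, they lie above them.

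Set against the oocyte markers, the summed level of the members did not separate SF from PF. The summed level of the 34 genes per TPM of oocyte markers was 0.565, 0.817 and 1.64 in SF replicates 1 to 3, against 0.712, 0.609 and 0.726 in PF replicates 1 to 3 and 1.97 in PF replicate 4. SF replicate 1 lay below the PF libraries, SF replicate 2 just above PF replicates 1 to 3 and SF replicate 3 well above. Per TPM of granulosa markers it was 0.172, 0.193 and 0.0630 in SF, against 1.46, 1.72 and 0.995 in PF replicates 1 to 3 and 0.372 in PF replicate 4, so that every SF library lay below all 4 PF libraries. A large part of that marker sum was *GSTA1*, at 4864, 5141 and 3935 TPM in SF, against 1604, 912.9 and 1562 TPM in PF and 1084 TPM in PF replicate 4. The granulosa markers *KRT19*, *WT1* and *IRX3* were lower in every SF library than in PF replicates 1 to 3. *NDC80* was at 2.70, 3.14 and 7.35 TPM per 1000 TPM of oocyte markers in SF, against 6.31, 5.77 and 5.08 in PF and 19.8 in PF replicate 4. *PLK1* was at 6.504, 18.4 and 82.3 in SF, against 5.26, 4.16 and 5.22 in PF and 62.8 in PF replicate 4. On this measure every SF library of *PLK1* lay above PF replicates 1 to 3, whereas those of *NDC80* lay on both sides. Under the oocyte scaling DESeq2 called 54.4% of all genes higher, so a rise relative to the oocyte markers is not particular to *PLK1*. The part of the oocyte share of the RNA in these differences was not tested.

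Ratios of paired members were also taken. Some pairs are partners in a complex, and others are related in another way, such as *AURKA* and *AURKB*. Of 16 pairs compared, the ratio was lower in every SF library than in PF replicates 1 to 3 for 4, higher for 0, and overlapping for 12, among them *SPC25* to *SPC24*, *SMC2* to *SMC4*, *BUB1B* to *BUB1* and *CCNB1* to *CCNB2*. No such count was made over pairs of other genes, so it cannot be read as particular to the members. The pairs printed were chosen after their values were seen, and their ratios are given with no test. The ratio of *NDC80* to *NUF2* in TPM was 0.221, 0.326 and 0.204 in SF replicates 1 to 3, against 0.471, 0.476 and 0.532 in PF replicates 1 to 3 and 0.481 in PF replicate 4. All 4 PF libraries lay close together and above every SF library. The ratio of *CDCA8* to *BIRC5* was 1.44, 1.91 and 1.29 in SF, against 6.59, 3.72 and 3.58 in PF and 0.633 in PF replicate 4. The ratio of *AURKA* to *AURKB* was 26.3, 27.1 and 13.3 in SF, against 86.6, 40.2 and 47.6 in PF and 4.00 in PF replicate 4. Both ratios separated SF from PF replicates 1 to 3, and PF replicate 4 was below either group. The ratio of *AURKA* to *TPX2*, its activator, overlapped. It was 38.3, 21.15 and 10.2 in SF, against 28.6, 42.7 and 39.6 in PF and 4.59 in PF replicate 4. The ratio of *CCNB2* to *CDK1* also separated SF from PF replicates 1 to 3, by a small distance, at 5.55, 4.43 and 0.625 in SF, against 16.1, 5.62 and 9.69 in PF and 1.24 in PF replicate 4. The ratio of *CDC20* to *MAD2L1*, the checkpoint's target and its binder, was 0.246, 0.271 and 0.203 in SF, against 0.236, 0.184 and 0.196 in PF and 0.249 in PF replicate 4, with the groups overlapping.

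**Figure D4:**
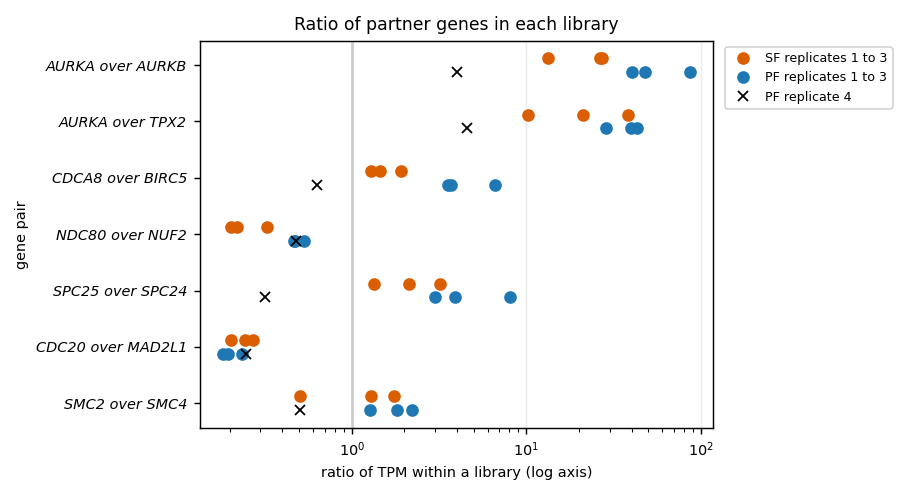
Ratio of the TPM of paired genes, not all of them partners in a complex, within each library on a log axis. SF replicates 1 to 3 are in orange above PF replicates 1 to 3 in blue, with PF replicate 4 as a cross. *NDC80* over *NUF2* lies at 0.204 to 0.326 in SF and 0.471 to 0.532 in the 4 PF libraries, whereas *CDC20* over *MAD2L1* overlaps between the groups.

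Gene models bore on some values. A single matched transcript model gave the level of 13 of the 34 genes. For *CDC20* the curated model held 6.37, 20.6 and 8.31 TPM in SF, against 39.4, 35.0 and 17.9 TPM in PF replicates 1 to 3 and 21.7 TPM in PF replicate 4. Its predicted model held 18.0, 4.92 and 2.40 TPM in SF, against 60.8, 37.7 and 21.0 TPM in PF and 0 in PF replicate 4. Neither *CDC20* model alone set the lower sum in SF. The curated *SPC25* model, of 1036 bases, held 35.8, 38.0 and 6.21 TPM in SF. It held 127, 164 and 92.7 TPM in PF replicates 1 to 3 and 13.2 TPM in PF replicate 4. The predicted model, of 4814 bases, held 3.24 to 5.22 TPM in SF and at most 5.43 TPM in PF, and the groups overlapped. The log2 fold change of *SPC25* was -2.01 with the length offset and -2.225 with limma on log2(TPM + 1), against -1.48 as reported. Of the 34 genes, 7 have a span, introns included, that overlaps the span of another protein-coding gene in the annotation, *CCNA2*, *PLK1*, *KIF20A*, *KIF23*, *NUSAP1*, *ANAPC7* and *NCAPG*. The span of *CDK1* overlaps that of a pseudogene. Whether exons are shared was not examined, and since the reads carry no strand, reads in a shared exon could not be told apart.

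The library names carry a number, which lies below 40 for SF replicate 1 and PF replicates 1 and 2 and above 40 for the other 4 libraries. The labels do not say what it stands for. In the libraries below 40, 32 of the 34 genes were lower in SF on log2(TPM + 1) (94.1%, against 54.8% of the 13397 genes), with a median difference of -1.64, against -0.13 over all genes. Above 40, with PF replicate 4 left out, 29 were lower in SF (85.3%, against 44.6%), with a median of -1.10, against 0.13 over all genes. With the number in the fit DESeq2 called 18 members lower and 1 higher, and of 17910 genes tested 1518 lower and 1422 higher.

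Other genes of the same machinery, 110 by list and 107 with a count, were listed too. Of the 106 tested, 32 were lower in SF (30.2%, against 11.0% of all genes) and 4 were higher (3.77%, against 8.14%), with a median log2 fold change of -0.79. The further genes listed under the role of cyclins and CDK1 had 3 of 14 lower (21.4%). *CKS1B*, which binds CDKs, was at 211 to 640.0 TPM in SF and 1421 to 3350.0 TPM in PF replicates 1 to 3 (log2 fold change -2.50 ± 0.47, adjusted p = 1.2e-05). *CDC25B*, a phosphatase that activates CDK1, was at 2.23 to 6.64 TPM in SF and 4.36 to 39.8 TPM in PF replicates 1 to 3 (log2 fold change -2.16 ± 0.73, adjusted p = 0.023), and *MASTL*, the Greatwall kinase, was at 0 to 0.579 TPM in SF and 1.63 to 6.59 TPM in PF replicates 1 to 3 (log2 fold change -3.54 ± 1.25, adjusted p = 0.029). Of 8 kinases and passenger genes 3 were lower (37.5%). *NEK2*, a centrosome kinase, was at 15.6 to 30.0 TPM in SF and 59.0 to 135 TPM in PF replicates 1 to 3 (log2 fold change -2.13 ± 0.39, adjusted p = 4.0e-06). *AURKC*, the aurora kinase of germ cells, was at 12.2 to 24.1 TPM in SF and 40.1 to 142 TPM in PF replicates 1 to 3 (log2 fold change -2.17 ± 0.50, adjusted p = 4.6e-04), and *SGO1*, shugoshin, which guards centromeric cohesin, was at 3.88 to 25.8 TPM in SF and 54.1 to 75.9 TPM in PF replicates 1 to 3 (log2 fold change -1.79 ± 0.62, adjusted p = 0.027). The calls of *CKS1B*, *NEK2* and *AURKC* held without each of the 6 libraries and with PF replicate 4 kept (0.033, 0.0014 and 0.022). *CDC25B* (0.072), *MASTL* (0.078) and *SGO1* (0.31) did not pass in that fit. Their calls also ended with 1 library left out, that of *CDC25B* when PF replicate 1, PF replicate 2, SF replicate 2 or SF replicate 3 was dropped (adjusted p up to 0.19), that of *MASTL* without PF replicate 1 or 3 or SF replicate 2 (up to 0.20) and that of *SGO1* without any 1 of PF replicates 1 to 3 or SF replicate 2 (up to 0.11).

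Of 7 further checkpoint genes 4 were lower in SF (57.1%). *SPDL1*, spindly, which brings dynein to kinetochores, was at 0.604 to 7.28 TPM in SF and 13.4 to 34.6 TPM in PF replicates 1 to 3 (log2 fold change -2.54 ± 0.79, adjusted p = 0.011). *TRIP13*, which remodels MAD2, was at 2.26 to 18.6 TPM in SF and 31.6 to 66.0 TPM in PF replicates 1 to 3 (log2 fold change -2.08 ± 0.68, adjusted p = 0.017), and *KNTC1*, a subunit that recruits MAD proteins, was at 0.363 to 1.85 TPM in SF and 3.99 to 6.82 TPM in PF replicates 1 to 3 (log2 fold change -1.90 ± 0.67, adjusted p = 0.029). The centromere and kinetochore list had 13 of 27 lower (48.1%) and 0 higher by DESeq2, with 16 and 0 at an unadjusted p below 0.05 and 0 and 0 called by edgeR. *MIS18A*, which readies the centromere for CENPA, was at 13.6 to 26.8 TPM in SF and 51.7 to 226 TPM in PF replicates 1 to 3 (log2 fold change -2.55 ± 0.52, adjusted p = 5.8e-05). *CENPN*, which binds the centromeric nucleosome, was at 2.98 to 4.99 TPM in SF and 12.7 to 21.6 TPM in PF replicates 1 to 3 (log2 fold change -1.89 ± 0.40, adjusted p = 9.2e-05), and *CENPH*, of the inner kinetochore, was at 9.07 to 17.4 TPM in SF and 39.3 to 80.6 TPM in PF replicates 1 to 3 (log2 fold change -1.91 ± 0.41, adjusted p = 1.3e-04). Of 16 spindle genes 5 were lower (31.25%). *TACC3*, a spindle protein acted on by Aurora kinase A, was at 14.2 to 52.2 TPM in SF and 75.1 to 198 TPM in PF replicates 1 to 3 (log2 fold change -2.07 ± 0.53, adjusted p = 0.0017). *KIF4A*, a chromosome motor, was at 1.84 to 7.37 TPM in SF and 13.4 to 47.3 TPM in PF replicates 1 to 3 (log2 fold change -2.28 ± 0.63, adjusted p = 0.0042), and *KIF2C*, which takes microtubules apart, was at 6.14 to 19.4 TPM in SF and 22.7 to 66.2 TPM in PF replicates 1 to 3 (log2 fold change -1.90 ± 0.54, adjusted p = 0.0054). Once PF replicate 4 was kept, *SPDL1* (0.015), *MIS18A* (0.038) and *CENPN* (0.0025) passed, and *TRIP13* (0.13), *KNTC1* (0.12), *CENPH* (0.075), *TACC3* (0.14), *KIF4A* (0.50) and *KIF2C* (0.23) did not. *KIF4A* was listed at 0 TPM in that library. With 1 library left out the calls of *MIS18A*, *CENPN*, *CENPH* and *TACC3* held in each case. That of *SPDL1* ended without PF replicate 1 or SF replicate 1 (up to 0.11), that of *TRIP13* without PF replicate 1 or 2 (up to 0.095), that of *KNTC1* without PF replicate 1 or 2 or SF replicate 2 (up to 0.14), that of *KIF4A* without PF replicate 1 (0.068) and that of *KIF2C* without PF replicate 2 (0.069).

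The last lists held the genes that were higher. Of 18 anaphase genes 2 were lower (11.1%) and 1 was higher (5.56%), near or below the shares of all genes. *ANAPC1*, the scaffold of the anaphase-promoting complex, was at 5.13 to 17.2 TPM in SF and 1.92 to 2.71 TPM in PF replicates 1 to 3 (log2 fold change 2.28 ± 0.58, adjusted p = 0.0015) and higher in SF, with 14.0 TPM in PF replicate 4. *ANAPC10* was at 17.7 to 30.9 TPM in SF and 52.3 to 70.0 TPM in PF replicates 1 to 3 (log2 fold change -1.13 ± 0.30, adjusted p = 0.0025) and *ANAPC11*, the catalytic subunit, at 149.5 to 216 TPM in SF and 279 to 451 TPM in PF replicates 1 to 3 (log2 fold change -0.89 ± 0.27, adjusted p = 0.0089). Of 16 condensin and cohesin genes 2 were lower (12.5%) and 3 were higher (18.75%), with a median of 0.78, whereas that of the 4 members of the same role was -1.31. *NCAPH*, the kleisin of condensin I, was at 5.54 to 18.0 TPM in SF and 21.1 to 63.8 TPM in PF replicates 1 to 3 (log2 fold change -1.91 ± 0.54, adjusted p = 0.0047), and *NCAPD3*, of condensin II, at 5.08 to 15.1 TPM in SF and 25.4 to 34.1 TPM in PF replicates 1 to 3 (log2 fold change -1.54 ± 0.45, adjusted p = 0.0068). *TOP2B*, topoisomerase II beta, which is not tied to division, was at 38.0 to 46.9 TPM in SF and 16.0 to 26.3 TPM in PF replicates 1 to 3 (log2 fold change 1.15 ± 0.32, adjusted p = 0.0047) and higher in SF, with 48.5 TPM in PF replicate 4. The other higher genes, named after their values were seen, were *RAD21*, a cohesin subunit, and *WAPL*, which releases cohesin. In the fit of all 7 libraries *ANAPC11* passed (0.012) and *ANAPC1* (0.60), *ANAPC10* (0.35), *NCAPH* (0.11), *NCAPD3* (0.13), *TOP2B* (0.49), *RAD21* (0.14) and *WAPL* (0.65) did not. With 1 library left out the calls ended for *ANAPC11* (0.061) and *WAPL* (0.068) without PF replicate 2, and for *RAD21* when any 1 of PF replicate 1, PF replicate 2, SF replicate 2 and SF replicate 3 was dropped (up to 0.16). Under the oocyte scaling 13 of the 19 lower genes named from these lists turned positive, and with PF replicate 4 kept DESeq2 called 11 of the 106 lower and 0 higher (36 and 1 at an unadjusted p below 0.05).

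**Figure D5:**
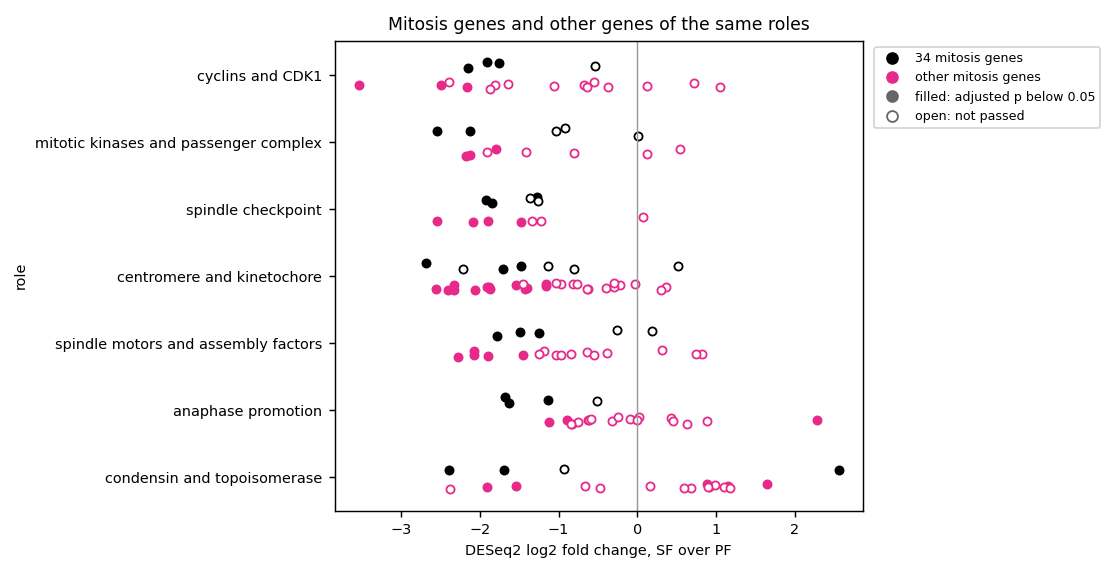
DESeq2 log2 fold change, SF over PF, of the 34 mitosis genes (black) and of the other genes of the same roles (pink), by role, filled where the adjusted p was below 0.05. Most filled points lie left of 0 in the centromere and kinetochore role and the spindle checkpoint, 13 of 27 and 4 of 7 other genes, whereas condensin and topoisomerase has filled points on both sides, and under the oocyte scaling 36 of 102 other genes tested were called higher (35.3%, against 54.4% of all genes) and 0 lower.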

How the data were processed

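RNA of whole follicles was sequenced in 3 SF and 4 PF libraries. SMART-Seq v4 cDNA was used, which keeps no strand information. Per the study's methods, reads were trimmed and Salmon assigned them to bovine transcripts. The authors deposited, per the file headers, an estimated count, a TPM and an effective length for each of 76123 RefSeq transcripts in each library. Groups and replicate numbers came from the sample titles. A RefSeq table of another assembly, used for gene names and for which genes overlap, matched 50205 of the transcripts to 23704 genes. Transcripts without a match held 9.71% to 10.7% of the counts and were left out. The estimated counts and the TPM were added up for each gene, and the counts were rounded.

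Totals were 18788105 to 23764615 estimated counts per library. The reads carry no molecular identifiers, so a floor of 3 counts covers counting error only. PF replicate 4 was left out of the main comparison, since the study removed the PF library that stood apart. SF was compared with PF by the Wald test of DESeq2 (version 1.42.0, run under R 4.3.3), scaled by its median-of-ratios size factors, with the default filter. Of 19009 genes with any count in these 6 libraries 15056 received an adjusted p, all 34 members among them, and 31 of the 34 reached 1 TPM in every library. Alternatives were edgeR 4.0.16 with TMM factors, and limma 3.58.1 with a trend on log2(TPM + 1) and log2(TPM + 0.1) of genes at 1 TPM or more in at least 3 libraries, or with no filter. Within DESeq2 they were TMM factors, size factors from the oocyte markers, a transcript length offset, a filter of 10 counts in 3 libraries, PF replicate 4 kept, a replicate block, the library number in the fit, an adjusted p below 0.01 and each library left out in turn. Sums and ratios were made with pandas 2.3.3 and numpy 2.4.6 (Python 3.11.15) and plots with matplotlib 3.10.9.

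All 34 members were named, and of the other mitosis genes the 3 with the smallest adjusted p below 0.05 per role. The members, the other lists and the tests were chosen with earlier results of these data known. Of 110 other mitosis genes listed, 107 had a count. Promoter motifs of the members were not analysed here.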

Additional observations from a re-analysis of the deposited data

Results flagged for a closer look

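In the 4 PF libraries, a single library lay far from the others for 3 of the 34 genes, taken as the gap to the nearest library over the whole range of log2(TPM + 1). For *SPC24* it was PF replicate 3, below the others (0.865). For *KIF20A* it was PF replicate 1, above the others (0.908). For *PTTG1* it was PF replicate 4, below the others (0.867). Chance alone gives about 1 such group in 20.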

How the results depend on the processing

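The count of members lower in SF, 19 as reported, was 17 with TMM factors, 18 with a transcript length offset or the library number as a covariate and 19 with a filter of 10 counts in 3 libraries. It was 8 with PF replicate 4 kept, 10 at an adjusted p below 0.01, 0 under edgeR (22 at an unadjusted p below 0.05), 0 under the oocyte scaling (0) and, with limma, 5 on log2(TPM + 1), 0 with no filter (23) and 0 on log2(TPM + 0.1) (24). With 1 library left out it ran from 9 (without PF replicate 1) to 21 (without SF replicate 2), and was 12 without PF replicate 2. Lower calls over all genes moved too. They were 1650 of 15056 as reported, 927 of 15163 without PF replicate 1 and 951 of 15176 without PF replicate 2. Without SF replicate 2 they were 1312 of 14976. With TMM factors they were 1455 of 15058, with the length offset 1679 of 15061 and with the library number 1518 of 17910. With PF replicate 4 kept they were 470 of 14733, under the oocyte scaling 38 of 15531 and with the count filter 1506 of 13692. At an unadjusted p below 0.05 edgeR found 1930 of 14293 lower. At that limit limma found 2433 of 19009 with no filter and 2297 of 13150 on log2(TPM + 0.1). Calls over all genes at an adjusted p below 0.01 were not counted. The count of members higher was 1 with each library left out, 0 with PF replicate 4 kept, under edgeR and in each of the limma fits, and 6 under the oocyte scaling. Over all genes the higher calls were 1226 of 15056 as reported and 697 to 2018 with 1 library left out. They were 388 of 14733 with PF replicate 4 kept and 8449 of 15531 under the oocyte scaling. Of the other mitosis genes 32 were lower in the comparison as reported, 11 with PF replicate 4 kept, 19 at an adjusted p below 0.01, 0 under edgeR (34 at an unadjusted p below 0.05), 0 under the oocyte scaling (0), 10, 0 (37) and 0 (40) in the limma fits, and 19 to 33 with 1 library left out (19 without PF replicate 1 and 20 without PF replicate 2). The 4 higher ones became 0 with PF replicate 4 kept, under edgeR and in each limma fit, 36 under the oocyte scaling, and 3 to 7 with 1 library left out. The counts of members without overlap were 24 lower and 1 higher, and 13 and 0 with PF replicate 4 kept. The causes of these shifts were not tested.

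Log2 fold changes that turned positive under the oocyte scaling were, among the members, *CCNA2* 0.0169, *CCNB1* 0.24, *CDK1* 2.32, *AURKB* 1.48, *BIRC5* 1.31, *BUB1* 0.68, *BUB1B* 0.41, *BUB3* 1.28, *MAD2L1* 0.56, *TTK* 0.79, *CENPF* 1.42, *NUF2* 0.78, *SPC24* 1.37, *SPC25* 1.02, *KIF20A* 0.53, *KIF23* 2.35, *TPX2* 1.10, *NUSAP1* 0.90, *CDC20* 0.69, *ANAPC7* 1.35, *UBE2C* 2.17, *PTTG1* 0.39, *SMC2* 0.69 and *SMC4* 1.99. Among the other mitosis genes named they were *CDC25B* 0.23, *NEK2* 0.42, *AURKC* 0.33, *SGO1* 0.11, *KNTC1* 1.10, *CENPN* 0.61, *CENPH* 0.56, *TACC3* 0.16, *KIF2C* 0.47, *ANAPC10* 1.34, *ANAPC11* 1.68, *NCAPH* 0.49 and *NCAPD3* 0.65. Some members turned in other settings. *PLK1* was -0.22 with PF replicate 4 kept, -0.15 with the library number as a covariate, -0.15 in each limma fit, -0.039 with the replicate block and -0.15 to 0.28 with 1 library left out. *CENPA* was -0.21 with the library number, -0.40 with the replicate block and -1.40 to 1.00 with 1 library left out. *KIF11* was -0.96 and *TOP2A* -0.32 with PF replicate 4 kept. With 1 library left out *CDK1* was -0.84 to 0.12, *CENPE* -5.70 to 6.7e-04 and *KIF11* -0.32 to 1.16.

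The replicate numbers are not stated to mark a shared animal or day. Deviations of same-numbered SF and PF libraries correlated at 0.26, -0.04 and 0.40 for numbers 1 to 3, PF replicate 2 correlated best with SF replicate 1 (0.27), and the numbers were not taken as pairs. With the replicate block 22 members were lower, with *BIRC5* (adjusted p = 0.033), *BUB1* (0.032) and *TTK* (0.012) added by DESeq2, and 1 was higher, and of the other mitosis genes 35 and 5. Over all genes the block gave more calls as well, 2129 of 14586 lower and 1948 higher. With 3 libraries per group and pools of unknown animals, no change of *CENPA*, which had 1 count in a library, was detectable over the spread between libraries, and *CENPE*, with 0 counts in a library, passed only without SF replicate 2 and with the library number.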
